A study of Mus musculus with 20 samples.

Results

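The genes described here are 10 apolipoprotein and lipid efflux genes of 55487 gene identifiers in the counts of mouse granulosa cells (GCs): Apoa4, Apof, Apoe, Apoc1, Pltp, Abca1, Abcg1, Lpl, Nceh1 and Lrp1. They were found by their GENCODE symbols, and all 10 were present in every file. Apoa4, Apof, Pltp and Nceh1 were chosen by the size of their difference between the mouse lines in these samples, so their line differences are given as a description, and where the fit across all genes called one of them the call is no evidence. The other 6 genes were not chosen for it.

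GCs of 20 mice were sequenced, 1 library per mouse, with 5 mice in each of 4 groups: unselected ctrl mice in estrus, FL1 mice in estrus, ctrl mice in diestrus and FL1 mice in diestrus. FL1 is the Dummerstorf high fertility line 1, bred for large litters from the founder population that also gave the ctrl line, and neither line carries a transgene or received a treatment. The lines differ across the genome, so effects of selection and of drift cannot be told apart. All mice were females aged 77 ± 5 days whose stage was read from vaginal smears, and the GCs were collected from the 7 to 10 largest follicles per mouse, with the oocyte and its cumulus cells left out. Whether replicate numbers mark a shared cage or day is not given in the labels.

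Lipoproteins carry cholesterol and other lipids between tissues. Their apolipoproteins hold the particle together and act as ligands and cofactors, lipases and transfer proteins change the particle's load, ATP-binding cassette transporters load cellular cholesterol onto apolipoproteins, and receptors of the LDL receptor family take particles up. GCs lie behind a basement membrane without blood vessels of their own, where the follicular fluid holds mostly high-density lipoproteins (HDL), and they use cholesterol as the precursor of progesterone. Many genes of reverse cholesterol transport are targets of the liver X receptors (LXR), and Apoe, Apoc1, Pltp, Abca1, Abcg1 and Lpl are all well known in macrophages, which handle large amounts of sterol.

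The libraries read the 3' ends of transcripts and held 5446576 to 8257041 reads on genes. Levels are given as CPM, the reads of a gene scaled to a fixed library size after TMM normalization, and all values of a gene are from its 3' end, so they say nothing about other parts of the transcript. All 14 markers of GCs were detected in each group, with a summed level of 8790 to 25679 CPM in the 20 samples, and thus the label of the cells held. Markers of other cells were present at lower levels, from 109.4 to 1283 CPM for 12 endothelial and mural cell markers, 211 to 1829 CPM for 13 theca and interstitial markers, 63.1 to 662 CPM for 10 oocyte markers and 51.0 to 1625 CPM for 9 blood markers. Since the samples are bulk RNA, fewer cells of a type and less RNA per cell cannot be told apart.

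RefSeq promoter windows of the GRCm38.p6 build, running from 250 bases before to 50 bases after the start, were at hand for Apoa4, Apoe, Pltp, Abca1, Nceh1 and Lrp1, and not for Apof, Apoc1, Abcg1 and Lpl. Those of the line-chosen Apoa4, Pltp and Nceh1 are shown beside that of Abca1, a textbook LXR target and the one member whose window held the LXR repeat described below. They lie at chr9:46240594-46240893 (plus strand), chr2:164857659-164857958 (minus strand), chr3:27182754-27183053 (plus strand) and chr4:53159846-53160145 (minus strand), and capitals mark matches to a searched motif.
Apoa4: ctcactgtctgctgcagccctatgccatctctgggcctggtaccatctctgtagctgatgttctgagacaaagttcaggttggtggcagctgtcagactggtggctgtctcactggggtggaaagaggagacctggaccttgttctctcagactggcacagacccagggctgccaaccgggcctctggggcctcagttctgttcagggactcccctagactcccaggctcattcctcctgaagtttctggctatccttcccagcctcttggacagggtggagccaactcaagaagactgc
Pltp: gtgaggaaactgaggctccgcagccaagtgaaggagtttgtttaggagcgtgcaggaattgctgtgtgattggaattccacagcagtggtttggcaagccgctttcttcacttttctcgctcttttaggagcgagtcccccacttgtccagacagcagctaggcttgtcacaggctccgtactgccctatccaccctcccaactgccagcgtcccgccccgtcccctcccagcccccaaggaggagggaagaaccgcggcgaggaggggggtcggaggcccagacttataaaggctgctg
Nceh1: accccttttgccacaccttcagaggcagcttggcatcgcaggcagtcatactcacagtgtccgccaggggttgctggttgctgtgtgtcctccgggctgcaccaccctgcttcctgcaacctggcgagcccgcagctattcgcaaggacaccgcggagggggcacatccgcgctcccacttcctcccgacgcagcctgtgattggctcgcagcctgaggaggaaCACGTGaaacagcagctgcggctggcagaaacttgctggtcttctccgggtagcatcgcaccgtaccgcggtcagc
Abca1: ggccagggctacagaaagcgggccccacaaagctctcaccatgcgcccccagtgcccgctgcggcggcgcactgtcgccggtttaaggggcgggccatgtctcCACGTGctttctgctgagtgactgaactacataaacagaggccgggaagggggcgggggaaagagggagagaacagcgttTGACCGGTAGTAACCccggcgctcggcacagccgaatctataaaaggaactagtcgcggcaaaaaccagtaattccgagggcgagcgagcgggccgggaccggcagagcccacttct
The spaced repeat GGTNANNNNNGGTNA, a loose form of the LXR element in which a pair of receptor sites in the same orientation is separated by 4 bases, was searched on both strands and is held by 236 of 32851 promoter windows (0.718%). Among the members only the Abca1 window held it, at bases 184 to 198 and so 67 bases before the start, in the orientation opposite to the gene. The E-box CACGTG, held by 7.15% of all windows, was in those of Nceh1 and Abca1, and AGGTCA, a single receptor site held by 16.3% of all windows on either strand, was in none of the members' windows. A match describes the letters only and says nothing about binding in GCs, and no match says only that these letters are not in the window.

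**Figure D1:**
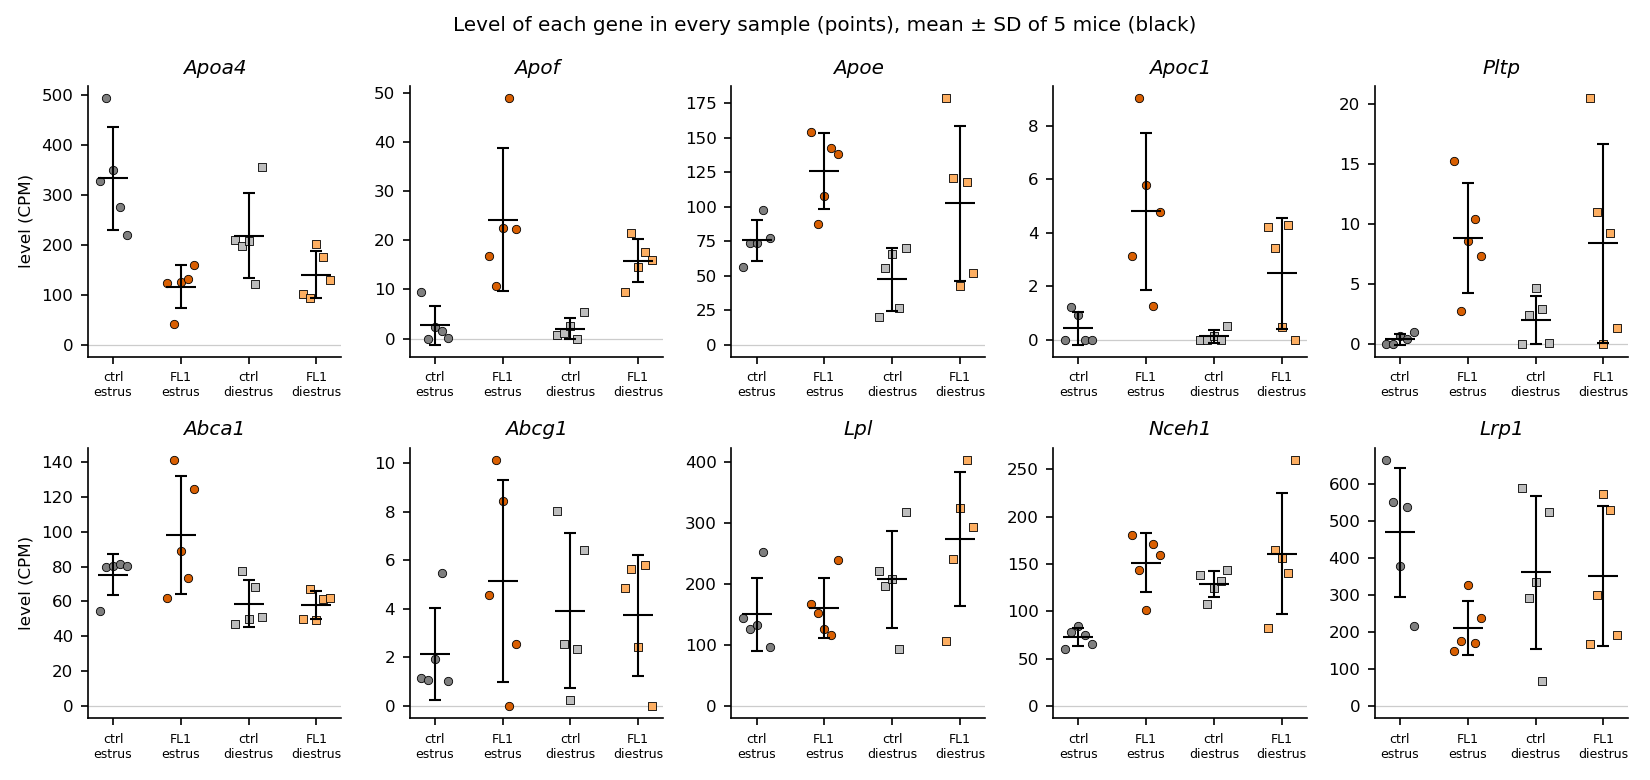
Level of each of the 10 genes in CPM (vertical axes, linear, each with its own range) in the 20 samples, by group. Points are mice, and black lines are the mean ± SD of 5 mice. In estrus the FL1 samples lie wholly below the ctrl samples for Apoa4 and wholly above them for Apof, Apoc1, Pltp and Nceh1.

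The first comparison asked how the lines differed within each stage. In estrus edgeR's quasi-likelihood test called 100 of 13007 tested genes with an adjusted p up to 0.05 (0.769%), and in diestrus 32 of 12886 (0.248%). Of the members, 9 were tested in each stage, since Apoc1 had too few reads for the filter. Called in estrus were Apoa4 and Nceh1, and both had been chosen for this difference. A gap between the lines, with no sample of one within the range of the other, was seen in 3.56% of the tested genes in estrus and in 1.58% in diestrus. Among the tested members it was seen for the 4 chosen genes in estrus and for Apof in diestrus, which again follows from the choice.

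Apoa4 (ENSMUSG00000032080, chr9:46240696-46243459, plus strand) encodes apolipoprotein A-IV, a carrier of intestinal lipoproteins and HDL that activates the cholesterol-esterifying enzyme LCAT. In estrus its levels were 327, 494, 349, 275 and 220.0 CPM in the ctrl mice and 124, 41.9, 125, 132 and 159 CPM in the FL1 mice. In diestrus they were 209, 198, 208, 120 and 357 CPM in ctrl mice and 100.7, 93.4, 201, 176 and 130 CPM in FL1 mice. It was the one chosen gene that was lower in FL1 mice, with no overlap in estrus and with overlap in diestrus. The log2 fold change of FL1 against ctrl was −1.52 (SE 0.29) in estrus and −0.64 (SE 0.28) in diestrus. Ordered by mean, ctrl estrus (333 ± 102.9 CPM, SD, n = 5) stood above ctrl diestrus (219 ± 85.6), FL1 diestrus (140 ± 47.0) and FL1 estrus (116.3 ± 43.9), and all neighbours in this order had overlapping samples. An exon of Apoa4 overlaps 2 genes on the other strand, Gm47528 with 30 to 319 reads and Gm10680 with 0 to 42 reads per sample. The strand setting of the counting is not given in the sources used here, and Gm47528 had log2 fold changes between the lines of −0.13 (SE 0.59) in estrus and −0.75 (SE 0.34) in diestrus. The part of reads from these genes in the Apoa4 values was not tested.

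Apof (ENSMUSG00000047631, chr10:128268671-128270153, plus strand) encodes apolipoprotein F, which inhibits the cholesteryl ester transfer protein in species that have it. In estrus the ctrl mice had 9.495, 0, 2.41, 1.48 and 0.173 CPM and the FL1 mice 16.7, 10.6, 22.5, 48.8 and 22.3 CPM. In diestrus the ctrl mice had 0.716, 1.21, 2.54, 0 and 5.50 CPM and the FL1 mice 9.54, 21.4, 14.6, 17.6 and 15.9 CPM. Within each stage every FL1 sample exceeded every ctrl sample, and over both stages the lowest FL1 sample (9.535 CPM) lay just above the highest ctrl sample (9.495 CPM, estrus replicate 1). The log2 fold changes were 3.14 (SE 0.86) in estrus and 2.97 (SE 0.81) in diestrus. In fits without 1 sample the estrus value ran from 2.72 to 4.50, the highest without ctrl estrus replicate 1. Ctrl samples held 0 to 65 reads of Apof, so these folds rest on few reads.

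Pltp (ENSMUSG00000017754, chr2:164839518-164857711, minus strand) encodes the phospholipid transfer protein, which moves phospholipids onto HDL. It was nearly absent from ctrl mice in estrus, at 0, 0, 0.688, 0.443 and 1.04 CPM (at most 6 reads), and stood at 15.3, 2.75, 8.60, 10.4 and 7.31 CPM in FL1 mice. In diestrus the ctrl mice had 0, 2.42, 4.68, 2.92 and 0.134 CPM and the FL1 mice 20.5, 10.99, 0, 9.23 and 1.37 CPM. The lines did not overlap in estrus, whereas in diestrus FL1 replicates 3 and 5 fell among the ctrl mice. The log2 fold change was 4.30 (SE 1.15) in estrus and 2.05 (SE 1.27) in diestrus, both from low counts. The 3' end of Pltp overlaps that of Ctsa on the other strand, which had 212 to 1063 reads per sample and log2 fold changes between the lines of −0.09 (SE 0.21) in estrus and 0.17 (SE 0.25) in diestrus.

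Nceh1 (ENSMUSG00000027698, chr3:27182965-27284608, plus strand) encodes neutral cholesterol ester hydrolase 1, which frees cholesterol from stored esters. In estrus it had 60.3, 77.9, 84.2, 74.6 and 65.6 CPM in ctrl mice and 181, 144, 101.1, 172 and 160 CPM in FL1 mice. In diestrus it had 138, 108.03, 124, 132 and 144 CPM in ctrl mice and 82.8, 165, 157, 140 and 260 CPM in FL1 mice. Ctrl mice in estrus stood apart, since their highest sample lay below every sample of FL1 estrus and ctrl diestrus, and FL1 diestrus replicate 1 (82.8 CPM) was the one other sample within their range. The log2 fold change of FL1 against ctrl was 1.06 (SE 0.20) in estrus and 0.32 (SE 0.25) in diestrus.

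Of the 6 members not chosen for a line difference, none of the 5 tested was differentially expressed by edgeR in either stage. At an unadjusted p below 0.05 there were 2 in estrus (Apoe and Lrp1) and 1 in diestrus (Apoe), beside 10.7% and 5.56% of all tested genes. DESeq2 called 2 in estrus, where it called 185 genes higher and 125 lower in FL1 mice, and 0 in diestrus. The genes of Apoe and Apoc1 lie next to each other on chromosome 7.

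Apoe (ENSMUSG00000002985, chr7:19696109-19699188, minus strand) encodes apolipoprotein E, the main ligand for uptake of remnant particles and a carrier that macrophages and steroidogenic cells secrete. In estrus its levels were 56.2, 73.5, 73.8, 97.9 and 77.4 CPM in ctrl mice and 154, 87.7, 107.7, 143 and 138 CPM in FL1 mice. In diestrus they were 20.03, 55.6, 65.7, 26.4 and 69.7 CPM in ctrl mice and 179, 121, 42.4, 118 and 51.8 CPM in FL1 mice. In estrus a single ctrl sample (97.9 CPM) reached into the FL1 range, and in diestrus FL1 replicates 1, 2 and 4 exceeded the highest ctrl sample. The 1.66-fold difference in estrus (log2 fold change 0.73, SE 0.21, adjusted p = 0.132 from edgeR) and the 2.17-fold difference in diestrus (log2 fold change 1.12, SE 0.40, adjusted p = 0.679 from edgeR) did not pass the test over all genes. DESeq2 placed the estrus value just under the threshold (adjusted p = 0.04995), and the alternatives run in edgeR gave 0.101 to 0.418 without a call.

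Apoc1 (ENSMUSG00000040564, chr7:19689481-19692660, minus strand) encodes apolipoprotein C1, a small inhibitor of lipoprotein uptake and of lipoprotein lipase. In estrus it had 0, 8, 8, 0 and 0 reads in ctrl mice and 20, 72, 37, 9 and 28 reads in FL1 mice. In diestrus it had 0, 0, 1, 0 and 4 reads in ctrl mice and 27, 25, 3, 25 and 0 reads in FL1 mice. The mean levels were 0.432 ± 0.603 CPM (SD, n = 5) in ctrl and 4.79 ± 2.91 CPM in FL1 mice in estrus, and 0.134 ± 0.232 and 2.48 ± 2.08 CPM in diestrus. In an exact two-sided permutation test of the CPM difference, used because the filter left the gene out of the fit, p was 0.00794 in estrus, the smallest that 5 against 5 mice allow, and 0.0873 in diestrus. Adjusted over these 2 tests, and not over all genes as for the other members, the values were 0.0159 and 0.0873. Any gene without overlap between the lines gives the smallest p, and 3.56% of the tested genes had no overlap in estrus. With the filter taken away, the edgeR fit across all genes gave an adjusted p of 0.223 in estrus and 0.355 in diestrus.

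Markers of other cells also differed between the lines. The summed level of 16 macrophage markers was 33.9 to 94.7 CPM in ctrl mice and 117 to 199.6 CPM in FL1 mice in estrus, without overlap, and 10.7 to 35.4 against 21.6 to 169 CPM in diestrus. In estrus 9 of 11 tested macrophage markers had a positive log2 fold change with a median of 0.76, in diestrus 9 of 9 with a median of 1.93, and none was called by edgeR. Among the markers Cd163 was at 0 reads in all ctrl samples of both stages and no marker was at 0 in all 20 samples. The 2 FL1 mice in diestrus with the lowest macrophage sums, replicates 3 (21.6 CPM) and 5 (79.3 CPM), were also the 2 with the lowest levels of Apoe, Apoc1 and Pltp in their group. FL1 replicate 1 in diestrus had the highest Apoe and Pltp of its group, and also the highest sums of macrophage (169 CPM), blood (1625 CPM) and endothelial and mural cell markers (1283 CPM) there. Its sums of theca and interstitial markers (1372 CPM) and of the luteal markers given below (9670 CPM) were the highest too. Its GC marker sum was the lowest of the group (14944 CPM). The theca and interstitial markers had a positive log2 fold change in 10 of 12 tested in estrus (median 0.46) and in 7 of 10 in diestrus (0.72), and the endothelial and mural cell markers in 7 of 10 (0.26) and 10 of 11 (1.38). Within groups, over the 20 samples, Pearson's r of the log2 levels with the macrophage sum was 0.74 for Apoe, 0.90 for Pltp and 0.28 for Apoc1, with the theca sum 0.73, 0.87 and 0.19, and with the endothelial sum 0.69, 0.78 and 0.29. With the blood sum it was 0.44, 0.57 and −0.17, and with the GC marker sum −0.25, −0.20 and −0.58. With the percentage of reads mapped outside genes it was −0.55 for Apoe, −0.73 for Pltp and −0.05 for Apoc1. Among the other members this r ran from −0.18 for Abca1 to 0.53 for Lrp1. The macrophage, theca and endothelial sums thus followed Apoe and Pltp to a like degree and Apoc1 weakly. The part of these cells, or of reads outside genes, in the differences of Apoe, Apoc1 and Pltp was not tested. The luteal markers, 8 genes induced as GCs luteinize, also separated the lines in estrus, with summed levels of 2404 to 6107 CPM in ctrl and 10099 to 13796 CPM in FL1 mice, and Akr1c18, Lhcgr and Star among them were called. The study lists Akr1c18, Lhcgr, Star, Hsd3b1 and Sfrp4 as higher in FL1 mice in estrus from these samples. This separation is thus not independent evidence.

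**Figure D2:**
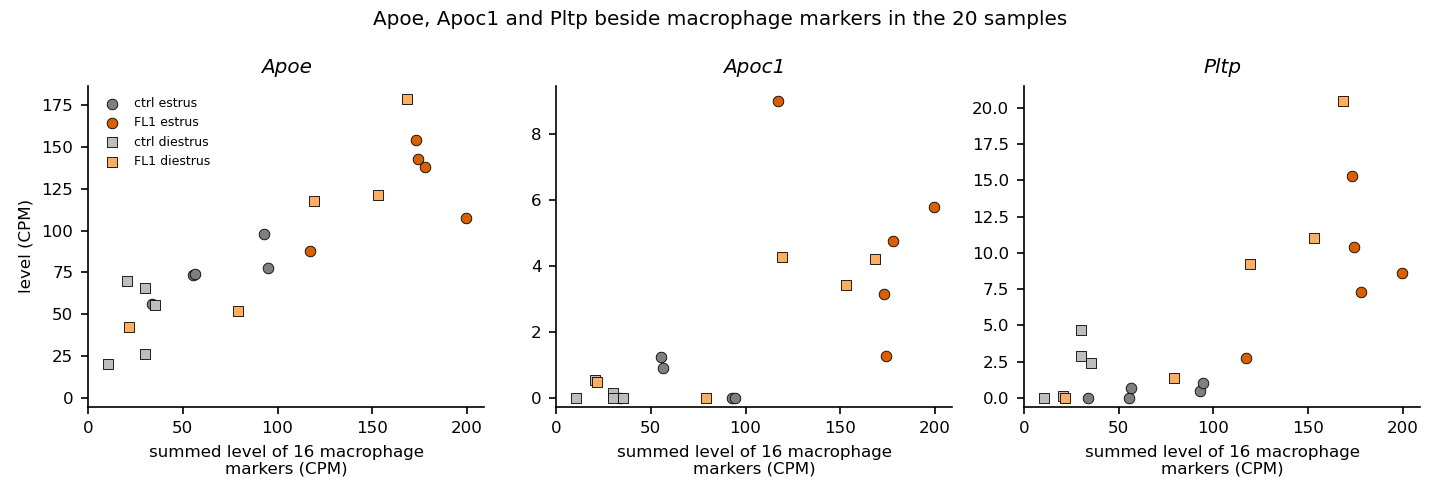
Levels of Apoe, Apoc1 and Pltp (vertical axes, CPM) against the summed level of 16 macrophage markers (horizontal axes, CPM) in the 20 samples, with colours for the lines and circles for estrus and squares for diestrus. FL1 samples with macrophage sums of 117 CPM or more hold most of the higher levels, and the FL1 diestrus samples at 21.6 and 79.3 CPM lie with the ctrl samples.

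Lrp1 (ENSMUSG00000040249, chr10:127538161-127621148, minus strand) encodes the LDL receptor related protein 1, a large endocytic receptor for apolipoprotein E and many other ligands. In estrus its levels were 664, 550, 379, 536 and 217 CPM in ctrl mice and 148, 174, 326, 169 and 237 CPM in FL1 mice. In diestrus they were 588, 291, 334, 66.5 and 523 CPM in ctrl mice and 167, 299, 571, 528 and 191 CPM in FL1 mice. In estrus ctrl replicate 5 lay within the FL1 range and the other ctrl samples above it, while in diestrus the lines overlapped throughout. The log2 fold change was −1.16 (SE 0.28, adjusted p = 0.0605 from edgeR) in estrus and −0.03 (SE 0.45, adjusted p = 1.00) in diestrus. The study lists Lrp1 for estrus from these samples, so the estrus value is not independent evidence, and the call depended on the setting. DESeq2 gave an adjusted p of 0.00283, and edgeR gave 0.000408 without the filter and 0.229 with all 20 samples in 1 fit. Of the 10 edgeR fits without 1 sample 2 called it, those without ctrl replicate 5 (0.0144) and without FL1 replicate 3 (0.0353), and the others reached up to 0.169.

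The transporters Abca1 and Abcg1 and the lipase Lpl showed small or scattered line differences. Abca1 (ENSMUSG00000015243, chr4:53030787-53159895, minus strand), which passes cholesterol to lipid-poor apolipoproteins, had 75.4 ± 11.6 CPM (SD, n = 5) in ctrl and 98.03 ± 33.8 CPM in FL1 mice in estrus, and 58.7 ± 13.4 and 58.0 ± 8.02 CPM in diestrus (log2 fold changes 0.38, SE 0.24, and −0.01, SE 0.21). Abcg1 (ENSMUSG00000024030, chr17:31057675-31117988, plus strand), which passes cholesterol to mature HDL, was low, with group means of 2.14 to 5.14 CPM and 0 reads in 2 FL1 samples. Its log2 fold changes were 1.25 (SE 1.14) in estrus and −0.06 (SE 1.09) in diestrus, and these errors were larger than a 2-fold difference. Lpl (ENSMUSG00000015568, chr8:68880491-68907448, plus strand), which hydrolyses the triglycerides of circulating particles, had 151 ± 60.0 CPM in ctrl and 160 ± 48.9 CPM in FL1 mice in estrus, and 208 ± 80.3 and 274 ± 110 CPM in diestrus (log2 fold changes 0.09, SE 0.26, and 0.41, SE 0.33). The adjusted p from edgeR was 0.630 or more for all 3 genes in both stages. Within groups, Pearson's r of the log2 levels with the sum of oocyte markers was 0.46 for Abca1, 0.57 for Abcg1 and 0.48 for Lpl. The part of oocytes in these levels was not tested.

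The line by stage interaction asked whether the line difference itself differed between the stages. No gene of 14938 was called by edgeR (0%), where 710 had an unadjusted p below 0.05, and DESeq2 called 0. The 6 members not chosen for a line difference had none with an unadjusted p below 0.05. Lrp1 came nearest, with a log2 difference of 1.12 between the line effects of diestrus and estrus (SE 0.57, unadjusted p = 0.0595, adjusted p = 1.00 from edgeR). A line difference in estrus that was smaller in diestrus, as for Nceh1, Apoa4 or Lrp1, was thus not shown to be particular to estrus.

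**Figure D3:**
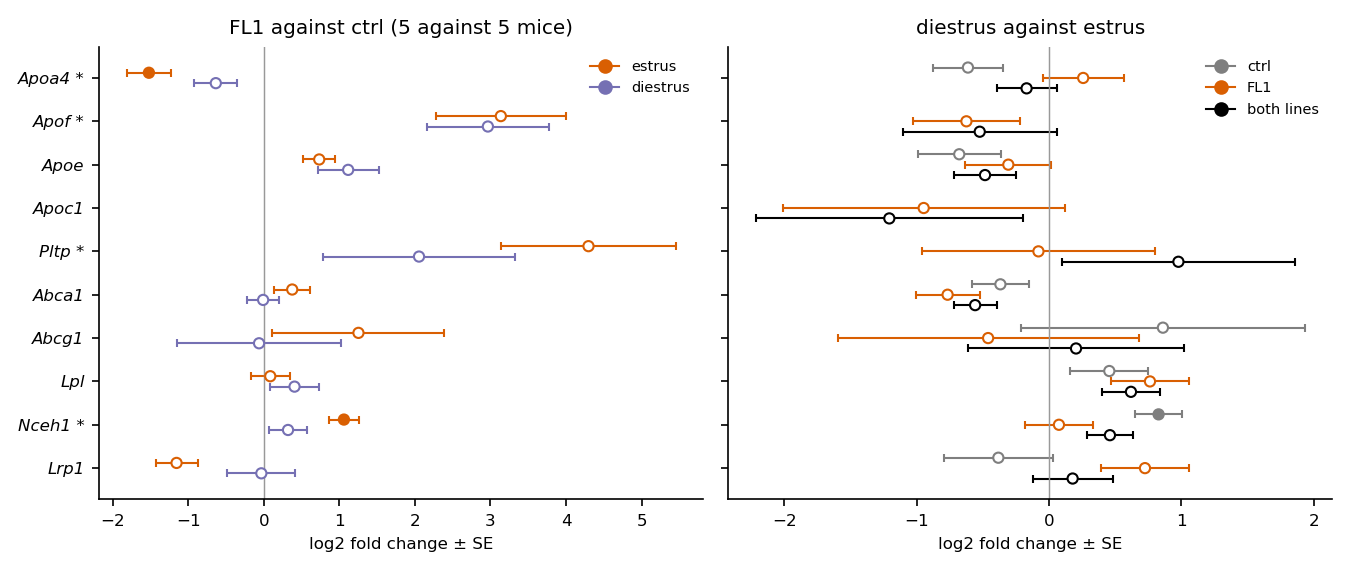
Log2 fold changes with their standard errors (horizontal axes) of the 10 genes, on the left FL1 against ctrl in each stage and on the right diestrus against estrus in ctrl, in FL1 and over both lines. Filled points passed the adjusted threshold of 0.05, asterisks mark genes chosen by their line difference, and a missing point means too few reads for the filter. Filled are Apoa4 and Nceh1 in estrus and Nceh1 between the stages of ctrl mice.

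The second comparison asked how the genes differed between diestrus and estrus. Over both lines 473 of 14938 genes were called (3.17%), in ctrl mice 175 of 12850 (1.36%) and in FL1 mice 29 of 13114 (0.221%). None of the 10 members was called over both lines by edgeR, where 4 had an unadjusted p below 0.05 (Apoe, Abca1, Lpl and Nceh1) beside 14.6% of all tested genes, and DESeq2 called 1 (Abca1) among 791 genes in all. In FL1 mice 0 of 10 were called, with 3 at an unadjusted p below 0.05 (Abca1, Lpl and Lrp1) beside 9.48% of all tested genes, and 0 by DESeq2. In ctrl mice 1 of 7 tested was called, Nceh1. The stages did not overlap for 3.66% of genes in ctrl mice and 2.42% in FL1 mice, and among the members for Nceh1 in ctrl mice alone.

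Nceh1 rose 1.77-fold from estrus to diestrus in ctrl mice, from 72.5 ± 9.57 to 129 ± 13.9 CPM (SD, n = 5), with all 5 diestrus samples above all 5 estrus samples (log2 fold change 0.83, SE 0.18, adjusted p = 0.0271 from edgeR). In FL1 mice it was 151 ± 31.4 CPM in estrus and 161 ± 64.0 CPM in diestrus (log2 fold change 0.07, SE 0.26, adjusted p = 0.975). The ctrl mice in estrus that set the rise are the same 5 samples that entered the line contrast by which Nceh1 was chosen, so the rise is not independent of that choice. Over both lines the log2 fold change was 0.46 (SE 0.17, adjusted p = 0.167), and without FL1 diestrus replicate 1, the one FL1 sample near the ctrl estrus level, it was 0.56 (adjusted p = 0.0287). The call in ctrl mice held in 3 of 10 fits without 1 sample (those without estrus replicate 3 and without diestrus replicates 1 or 2), and adjusted p ranged from 0.0277 to 0.0789 over the 10.

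Abca1 had lower mean values in diestrus than in estrus in both lines, but it passed the test in neither line nor over both. The estrus samples were 54.8, 79.9, 80.4, 81.6 and 80.3 CPM in ctrl and 61.7, 141, 89.1, 73.4 and 125 CPM in FL1 mice, and the diestrus samples 46.9, 77.4, 49.9, 68.3 and 51.2 CPM in ctrl and 49.9, 67.3, 49.2, 61.4 and 62.1 CPM in FL1 mice. The stages overlapped in both lines, and in ctrl mice estrus replicate 1 stood far below the other estrus samples. It was 1.47-fold lower in diestrus over both lines (log2 fold change −0.56, SE 0.16, adjusted p = 0.0548 from edgeR), which just missed the threshold, and log2 fold changes were −0.37 (SE 0.21, adjusted p = 0.571) in ctrl and −0.77 (SE 0.24, adjusted p = 0.225) in FL1 mice. It passed with DESeq2 (adjusted p = 0.0228), with the size factors of DESeq2 in edgeR (0.0489) and in 5 of 20 edgeR fits without 1 sample, among them the fit without ctrl estrus replicate 1 (0.0344), with a range of 0.0293 to 0.106 over the 20, and it did not pass without the filter (0.0724).

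Lpl was higher in diestrus by value, with a log2 fold change of 0.62 over both lines (SE 0.22, adjusted p = 0.130 from edgeR), 0.45 (SE 0.29, adjusted p = 0.640) in ctrl and 0.76 (SE 0.29, adjusted p = 0.368) in FL1 mice. FL1 diestrus replicate 1, at 107.4 CPM where the other 4 had 241 to 404 CPM, decided the call. Without it the adjusted p was 0.0383 over both lines and 0.0479 within FL1 mice. Apoe was 1.40-fold lower by value in diestrus over both lines (log2 fold change −0.48, SE 0.24, adjusted p = 0.341). Negative too were the log2 fold changes of 11 of 13 tested macrophage markers (median −1.01, none called), 10 of 12 theca and interstitial markers (−0.94, with 2 called lower and 1 higher) and 11 of 11 endothelial and mural cell markers (−0.49, none called). Their part in the Apoe value was not tested. Apoa4, Apof, Apoc1, Pltp, Abcg1 and Lrp1 had adjusted p-values of 0.678 or more over both lines.

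The members also differed in which genes they resembled most across the 20 samples, measured as Pearson's r of log2 CPM among 14938 genes, as a description without a test that includes the difference between groups. Apoe was most like Cx3cr1 (r = 0.89), a chemokine receptor of macrophages and monocytes, and Litaf (0.89) and Vgll3 (0.88). Pltp was most like Vsir (0.82), Tbrg1 (0.82) and Ctss (0.80), and Ctss is a lysosomal protease and one of the macrophage markers used here. Nceh1 was most like Efna5 (0.89), Adcy9 (0.85) and Atp1b1 (0.84), while Apof was most like Rnf208 (0.90), Ptprz1 (0.88) and Myocos (0.84). Apoa4 was most like Dpysl5 (0.87), Adamts2 (0.84) and Sel1l3 (0.83), and Apoc1 like Mapt (0.91), Lsr (0.90) and Sgk1 (0.84). Abca1 was most like Ttyh2 (0.80), Loxl2 (0.80) and Rab5if (0.79), and Abcg1 like Cmtr2 (0.78), Zfp825 (0.74) and Ippk (0.73). Lpl was most like Ptprf (0.89), Scgb3a1 (0.84) and Mgat5 (0.84), and Lrp1 like the splicing cofactors Srrm2 (0.88) and Cactin (0.86) and like Phrf1 (0.87). Between members the highest r were 0.71 for Apoe with Apoc1, 0.68 for Apoe with Pltp and 0.66 for Apoa4 with Lrp1, and the lowest was −0.67 for Apoa4 with Pltp. The samples share the 4 groups and the marker differences above, so these values do not separate genes by cell.

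The wider pathways were read from 6 lists of genes in the same fits. Between the lines in estrus the main edgeR fit called 1 listed gene, Gm2a, which codes for the lysosomal activator of ganglioside GM2 breakdown. It was 3.93-fold higher in FL1 mice, at 503 ± 352 against 128 ± 37.0 CPM (SD, n = 5; log2 fold change 1.98, SE 0.34, adjusted p = 0.00774 from edgeR), without overlap of the samples. The study lists Gm2a for estrus from these samples, so this value is not independent evidence. Of the 18 genes of sterol ester and lysosomal cholesterol handling 15 were tested, with a median log2 fold change of 0.00 beside 0.01 over all genes. None was called among 8 tested of 22 apolipoproteins and related carriers (median 0.31), 9 of 16 lipoprotein lipases and HDL remodelling genes (0.06), 13 of 16 ABC transporters (0.23), 17 of 20 genes of LXR, RXR and their targets (−0.09) and 17 of 18 LDL receptor family genes and adaptors (0.05). In diestrus edgeR called no listed gene between the lines and DESeq2 called 2, Gm2a and Scarb1.

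Between the stages edgeR called Scarb1 and Angptl4 of the list of lipases and HDL remodelling in ctrl mice, and no gene of that list in FL1 mice. Scarb1, the HDL receptor SR-BI by which steroidogenic cells take up cholesteryl esters, fell from 726 ± 53.4 to 374 ± 130 CPM (SD, n = 5) from estrus to diestrus in ctrl mice (log2 fold change −0.96, SE 0.21, adjusted p = 0.0293 from edgeR) and was 816 ± 57.8 and 659 ± 96.2 CPM in FL1 mice. Angptl4, an inhibitor of lipoprotein lipase, fell from 151 ± 26.3 to 61.0 ± 18.4 CPM in ctrl mice (log2 fold change −1.31, SE 0.22, adjusted p = 0.00690) and was 140 ± 34.0 and 104.6 ± 16.3 CPM in FL1 mice. In ctrl mice Angptl4 was called in 10 of 10 fits without 1 sample and Scarb1 in 2 of 10 (those without estrus replicate 5 or diestrus replicate 2). The study lists both genes as higher in FL1 than in ctrl mice in diestrus. The same ctrl diestrus samples entered that contrast, so the falls in ctrl mice are not independent of it. Over both lines Scarb1 (−0.63, SE 0.15) and Angptl4 (−0.86, SE 0.17) were lower and Cd36, a fatty acid and lipoprotein scavenger receptor, was higher (1.38, SE 0.33), with adjusted p of 0.0122, 0.004595 and 0.0145 from edgeR. These were the 3 called of 11 tested in the list of lipases and HDL remodelling, whose median was −0.40 beside 0.02 over all genes.

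Abcb1b, a multidrug efflux pump, fell in every stage comparison, from 51.4 ± 21.1 to 13.8 ± 6.41 CPM in ctrl and from 130 ± 49.0 to 34.1 ± 14.9 CPM in FL1 mice (log2 fold changes −1.90, SE 0.38, and −1.94, SE 0.33, adjusted p = 0.0193 and 0.0163 from edgeR). The call was lost in 4 of 10 fits without 1 sample in ctrl mice (without estrus replicates 3 or 4 or diestrus replicates 3 or 5) and in 3 of 10 in FL1 mice (without diestrus replicates 3, 4 or 5), and it held in 20 of 20 over both lines. It was the only ABC transporter called of 14 tested over both lines (median −0.21). Scd1, a fatty acid desaturase and LXR target, was lower in diestrus over both lines (−1.47, SE 0.37, adjusted p = 0.0243) and the only one the main edgeR fit called of 17 in the LXR list (median −0.06). DESeq2 also called Nr1h3 of this list over both lines, and edgeR without the filter called Nr1h3 between the stages of ctrl mice. Gm2a fell over both lines (−1.23, SE 0.27, adjusted p = 0.008935) and in ctrl mice (−1.03, SE 0.23, adjusted p = 0.0293), 1 of 16 and 1 of 15 tested in its list. In ctrl mice Gm2a was called in 3 of 10 fits without 1 sample (without estrus replicates 1 or 2 or diestrus replicate 2). By edgeR no gene of the apolipoprotein list (11 tested over both lines, median −0.07) or the LDL receptor family (17 tested, median 0.17) was called in any comparison of stages.

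**Figure D4:**
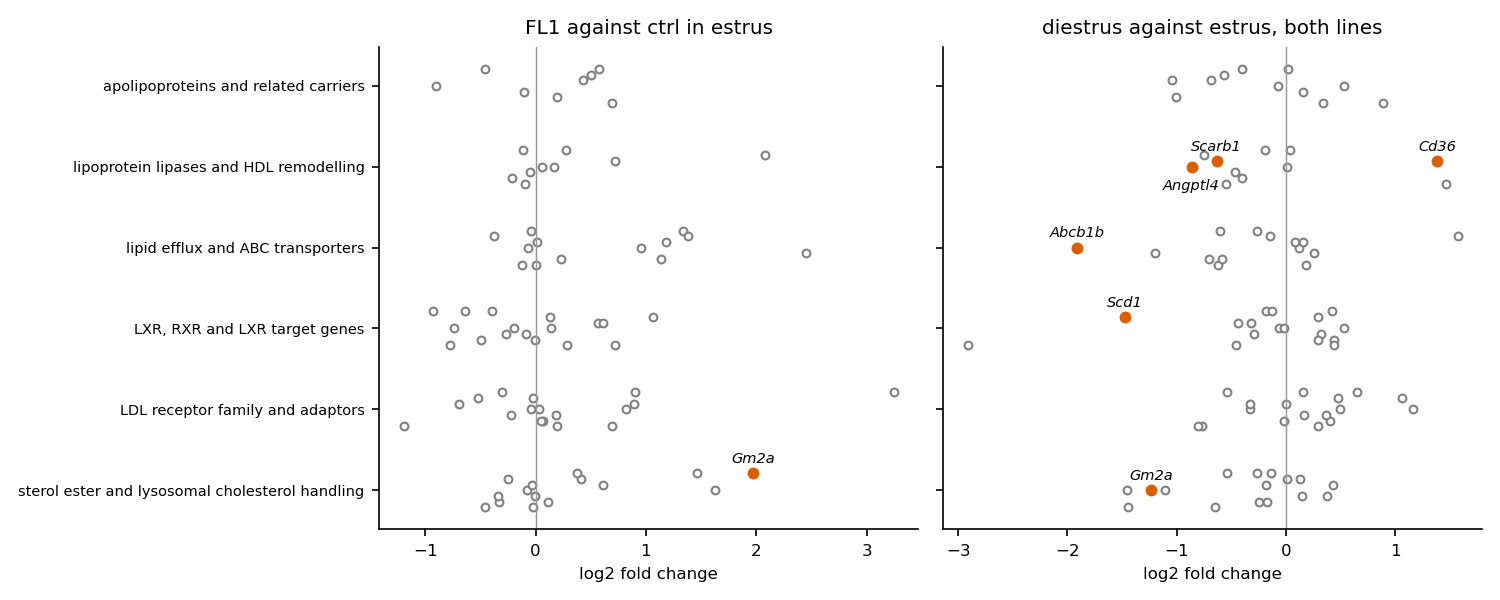
Log2 fold changes (horizontal axes) of the tested genes of 6 pathway lists (rows, points spread vertically only for legibility), on the left FL1 against ctrl in estrus and on the right diestrus against estrus over both lines. Filled and named points passed the adjusted threshold of 0.05, which are Gm2a on the left and Angptl4, Scarb1, Cd36, Abcb1b, Scd1 and Gm2a on the right.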

How the data were processed

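RNA of GCs from 20 mice was sequenced as 3' tags (QuantSeq), and the deposited values were raw counts of reads per Ensembl gene, which the authors made with STAR on GRCm38 (Ensembl release 95). No step before the counts was repeated, and the 4 lines of unassigned reads in each file were left out (48.9 to 58.4% of reads fell on genes). The members and gene lists were chosen with earlier results of these data known.

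Each pair of groups was fitted with edgeR 4.0.16 in R 4.3.3 (TMM, quasi-likelihood F test without robust estimation), keeping genes by filterByExpr (minimum count 10, minimum total 15, minimum share 0.7), with Benjamini-Hochberg adjustment over all genes tested and a threshold of 0.05. The stage effect over both lines had line as a term, and the interaction had one mean per group, both over 20 samples. CPM used TMM sizes over 20 samples, and likeness used log2 CPM with a prior count of 2. Alternatives were DESeq2 1.42.0, its size factors in edgeR (RLE), no filter, 1 fit of all 20 samples, a replicate block and each sample left out. The scripts were tested on simulated data. Named were all 10 members, the called genes of each pathway list and the 3 most alike genes of each member. Same-numbered samples did not deviate together (correlations of deviations −0.12 to 0.12, 1 of 20 over 0.1), so the number was not used as a pairing. Near-identical copies were sought in the last 500 bases (90% identity over 100 bases), and Apoa4 and Pltp matched the overlapping Gm10680 (184 bases) and Ctsa (312 bases), and Abcg1 and Lpl each 3 other genes over at most 195 bases.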

Additional observations from a re-analysis of the deposited data

Results flagged for a closer look

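Among 40 groups of 5 samples (10 genes in 4 groups), 4 held a sample that stood apart from the others by Dixon's criterion, where chance flags about 1 in 20. All 4 were ctrl mice. In estrus these were Apof in replicate 1 (9.495 CPM, next 2.41 CPM), Abca1 in replicate 1, the one low value (54.78 CPM, next 79.89 CPM), and Abcg1 in replicate 4 (5.462 CPM, next 1.951 CPM). In diestrus it was Apoc1 in replicate 5 (0.5363 CPM, next 0.1337 CPM), which rests on 4 reads. For no member did the difference of the line effect between the stages pass a test.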

How the results depend on the processing

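Counts of calls changed with the tool, the filter and single samples, and the cause was not tested. In estrus the 54 genes called higher and 46 called lower in FL1 mice became 185 and 125 with DESeq2 and 238 and 135 without the filter, and in diestrus the 12 and 20 became 41 and 45 with DESeq2 and 55 and 52 without the filter. Between the stages DESeq2 called 423 genes in ctrl mice, 225 in FL1 mice and 791 over both lines, and without the filter 348 were called in ctrl mice, 299 in FL1 mice, 617 over both lines and 6 in the interaction. DESeq2 called 6 members in estrus (the 4 chosen genes, Apoe and Lrp1), 1 in diestrus (Apof) and 1 between the stages over both lines (Abca1), and 5 were called in estrus without the filter. With RLE size factors 1 member was called between the stages over both lines (Abca1). With all 20 samples in 1 fit 0 members were called between the stages of ctrl mice (Nceh1 adjusted p = 0.0704 by edgeR), the call of Gm2a there was lost (0.233), and 65 genes were called between those of FL1 mice.

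Samples with the same replicate number did not deviate together. With the replicate number as a block, 30 genes were called higher and 28 lower in FL1 mice in estrus and 5 and 8 in diestrus. Under the block 0 members were called between the lines in estrus, 0 between the stages of ctrl mice and 1 over both lines (Abca1), and the log2 fold changes of Abca1, Abcg1 and Lrp1 between the lines in diestrus turned to 0.0049, 0.29 and 0.029. The calls of Scd1 over both lines and of Abcb1b in FL1 mice were also lost under the block, and Lrp1 in estrus had an adjusted p of 0.180 by edgeR.

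Without 1 sample, 32 to 74 genes were called higher and 34 to 64 lower in FL1 mice in estrus, and 7 to 11 and 13 to 21 in diestrus, with 1 to 3 and 0 members. Between the stages 77 to 176 genes and 0 to 1 members were called in ctrl mice (fewest genes without ctrl diestrus replicate 5), 13 to 178 and 0 to 1 in FL1 mice, and 324 to 728 and 0 to 2 over both lines. FL1 diestrus replicate 1 decided the upper ends, since without it the 29 and 473 calls became 178 and 728. Small values changed sign, with log2 fold changes of −0.10 to 0.36 for Lpl in estrus, −0.088 to 0.10 for Abca1, −0.37 to 0.37 for Abcg1 and −0.30 to 0.22 for Lrp1 in diestrus, −0.73 to 0.24 for Pltp and −0.16 to 0.24 for Nceh1 between the stages of FL1 mice, −0.89 to 0.037 for Apof and −0.048 to 0.46 for Abcg1 over both lines, and −1.55 to 0.62 for Apof and −0.22 to 2.11 for Apoc1 in the interaction. Apof, left out by the filter between the stages of ctrl mice, entered 7 of these fits there, with 0.95 without ctrl estrus replicate 1 and −0.76 to −0.12 in the other 6. Other tested values of the members and the called pathway genes kept their direction in these fits. Reads were few for Apof, Apoc1, Pltp and Abcg1, each with 0 reads in some samples.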
